A study of Meleagris gallopavo with 24 samples.

Results

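PCK1 (ENSMGAG00000009033) encodes the cytosolic phosphoenolpyruvate carboxykinase, which turns oxaloacetate into phosphoenolpyruvate. It is described here in turkey heart and liver together with the other genes of gluconeogenesis that had a row in the count table. The genes were chosen by identifier for PCK1 and by 11 further symbols for the rest (PCK2, PC, FBP1, FBP2, G6PC with its numbered forms, PPARGC1A, FOXO1 and SLC37A4). PCK1, SLC37A4, PPARGC1A and FOXO1 were found, 4 of the 11587 genes in the table. PCK2, PC, FBP1, FBP2 and the G6PC genes were not analysed here. PCK1 itself was selected on its change in liver in these same libraries, so its liver values are given as a description with no test.

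The study asked how salinomycin (Sal), a polyether ionophore fed to poultry against coccidia, changes gene expression in female turkeys. Sal-exposed birds ate feed with Sal at 21 mg/kg, for which the daily dose was estimated at 0.9 mg/kg body weight, during weeks 12 to 13, and control birds ate a diet without Sal. Before that period all birds had been on Sal-free diets. Tissues were taken at the end of week 13 from birds housed as 4 individuals per pen, and RNA-seq gave 6 Sal-exposed and 6 control libraries of each tissue. Heart and liver were dissected from the same birds, and tests across tissues treated their libraries as independent. The sources used here do not say which heart and liver share a bird, which birds shared a pen or when they had last eaten.

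Gluconeogenesis makes glucose from lactate, amino acids and glycerol. Oxaloacetate made from pyruvate in the mitochondrion can be converted to phosphoenolpyruvate there, by the mitochondrial enzyme PCK2, or after export of reducing equivalents and carbon to the cytosol, by PCK1. In mammals PCK1 transcription in liver rises in fasting with glucagon and cyclic AMP and falls with insulin. In the adult chicken, liver carries mainly the mitochondrial enzyme, and the cytosolic enzyme is best known from kidney. Since PCK2 was not analysed here, the mitochondrial side is described only through the enzymes and carriers that feed and link the compartments.

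All 4 genes lie on Turkey_5.1 and are protein coding. PCK1 is on chromosome 22 from 12089144 to 12095963, and its identifier took its symbol from the RefSeq gene of the same assembly that it overlaps. SLC37A4, the endoplasmic reticulum glucose-6-phosphate transporter, is on chromosome 26 from 5706163 to 5712493 and overlaps 1 other gene model. The sources used here do not say whether counting used strand, so its counts are uncertain to that extent. PPARGC1A, a transcriptional coactivator of gluconeogenic and mitochondrial genes, is on chromosome 4 from 53609026 to 53782842. Of the span of its model, 42.2% lies within the RefSeq gene. FOXO1, the forkhead factor that insulin signalling keeps out of the nucleus, is on chromosome 1 from 160382341 to 160384389. Its model covers 7.9% of the span of the RefSeq gene, so its counts come from part of the gene.

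The study measured PCK1 by RT-qPCR as well, and its primers are shown because they define the transcript that the name PCK1 refers to there.
PCK1 forward primer: attgacgagccattaccccc
PCK1 reverse primer: atacaagaggcacaccaagcag
They have 20 and 22 bases and are written 5′ to 3′. RT-qPCR values were not used here.

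The heart libraries held 23372118 to 35979378 counts and the compared liver libraries 15706646 to 31305782. Liver control 3 held 3729229 counts and stayed out of the comparisons, which left 5 liver controls. The study left that library out too. Hepatocyte markers were detected for 10 of 10 genes in every compared liver library, with summed levels of 187300 to 281100 CPM (counts scaled to 1 M in a library, with M for mega) in Sal-exposed livers and 205600 to 232400 CPM in control livers. ALB made up most of each sum, so the sums say little about the other markers. None of the 10 passed the adjusted p between the groups (lowest 0.0995 by edgeR), against 7.36% of all genes higher and 6.89% lower. A list of 10 genes can hold none at those shares. At an unadjusted p below 0.05 in edgeR there were 4 of the 10, against 3095 of all 10269 genes tested. Their log2 fold changes ran from -0.48 to 0.94 over the 10 genes. Mitochondrial genes took 48.3% to 86.9% of heart counts and 16.7% to 46.2% of liver counts. Genes with a count numbered 10918 to 11350 in Sal-exposed livers and 9268 to 11055 in the compared control livers. The study reported a higher share of uniquely aligned reads for each Sal-exposed liver than for any control liver. What this does to the liver comparisons was not tested, and it cannot be told apart from Sal here.

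PCK1 was almost absent from Sal-exposed livers and abundant in control livers. It stood at 0.507 (lowest), 1.04 (median) and 3.26 CPM (highest) in the 6 Sal-exposed livers, against 393, 324, 123, 280 and 204 CPM in control livers 1, 2, 4, 5 and 6. Here and for single genes below, CPM were adjusted with the trimmed mean of M-values (TMM) within the tissue. The groups were far apart, and the lowest control was 37.8 times the highest Sal-exposed value.

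PCK1 averaged 1.36 ± 1.02 CPM in Sal-exposed livers (SD, n = 6) and 265 ± 105 CPM in control livers (SD, n = 5), so the control mean was 195 times the Sal-exposed mean. The fitted log2 fold change of Sal-exposed over control was -7.53 (SE 0.51), the lowest of the 10269 genes tested in liver. In Sal-exposed livers these levels rested on 13 to 78 counts per library, and in control livers on 2567 to 10656. Ranges that did not overlap were found for 10.1% of all genes tested in liver, and PCK1 was chosen on this contrast, so its own separation is a description.

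Within each group PCK1 also varied. The highest control was 3.19 times the lowest control, and the highest Sal-exposed library was 6.42 times the lowest. The log2 fold change stayed between -7.97 and -7.35 when each of the 11 libraries was left out in turn. Liver control 3, which took no part in the fit, held 880 PCK1 counts, or 236 CPM of its own total with a 95% exact binomial interval of 220.6 to 252.1 CPM, which covers counting error only. That library lay among the other controls.

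PCK1 is also known from enterocytes, kidney tubule and fat, so markers of those cells were set beside it. The 13 enterocyte markers in the table, without APOA4 and MTTP, summed to 170 to 394 CPM of the library total in the 6 Sal-exposed livers. In control livers 1, 2, 4, 5 and 6 they summed to 7980, 180, 188, 1522 and 263 CPM. By this sum controls 1 and 5 were above every Sal-exposed library, and controls 2, 4 and 6 were not. Most of the sum in Sal-exposed livers came from ANPEP and CDHR2. Without these, a choice made after seeing the data, 11 markers summed to 6.52 to 17.2 CPM in Sal-exposed livers and to 4765, 14.7, 22.3, 616.5 and 29.2 CPM in control livers 1, 2, 4, 5 and 6, so that control 2 alone lay within the Sal-exposed range.

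Gene by gene, 8 of 13 enterocyte markers were above every Sal-exposed library in at least 3 of the 5 controls. All 13 were so in controls 1 and 5, against 2 in control 2, 5 in control 4 and 4 in control 6. Controls 1 and 5 thus counted towards the 3 for every marker. The share of all genes that meet this measure was not computed, so these counts are a description. The intestinal factor CDX1 had at most 3 counts in Sal-exposed livers and 752, 0, 27, 134 and 0 counts in control livers 1, 2, 4, 5 and 6. Sucrase-isomaltase (SI) had at most 68 counts in Sal-exposed livers and 25103, 0, 138, 2302 and 121 counts in the same controls. SLC5A1 and CPO were instead below every Sal-exposed liver in controls 2, 4 and 6. SLC5A1 had 18 to 80 counts in Sal-exposed livers and 5306, 0, 0, 716 and 8 counts in the same controls. CPO had 7 to 16 counts in Sal-exposed livers and 8613, 0, 0, 1384 and 0 counts in those controls. Of 12 markers tested, APOA4 and MTTP included, 8 (66.7%) were called lower in liver, against 3.08% of all genes, with a median log2 fold change of -4.80. That fit included controls 1 and 5, and marker calls without them are not given here.

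PCK1 stood at 393 and 280 CPM in controls 1 and 5, with the most enterocyte counts, and at 324, 123 and 204 CPM in controls 2, 4 and 6. Each of these was above every Sal-exposed library. Control 2, with 324 CPM of PCK1, had 0 counts of SI and 1 count of the intestinal fatty acid binding protein FABP2, below every Sal-exposed liver. In the same library PLB1 and CDHR5, with 35 and 229 counts, were above every Sal-exposed liver. Control 2 had 9563 genes with a count, against 10918 to 11350 in Sal-exposed livers. Without controls 1 and 5, an alternative chosen after seeing the data, the PCK1 log2 fold change was -7.27.

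**Figure D1:**
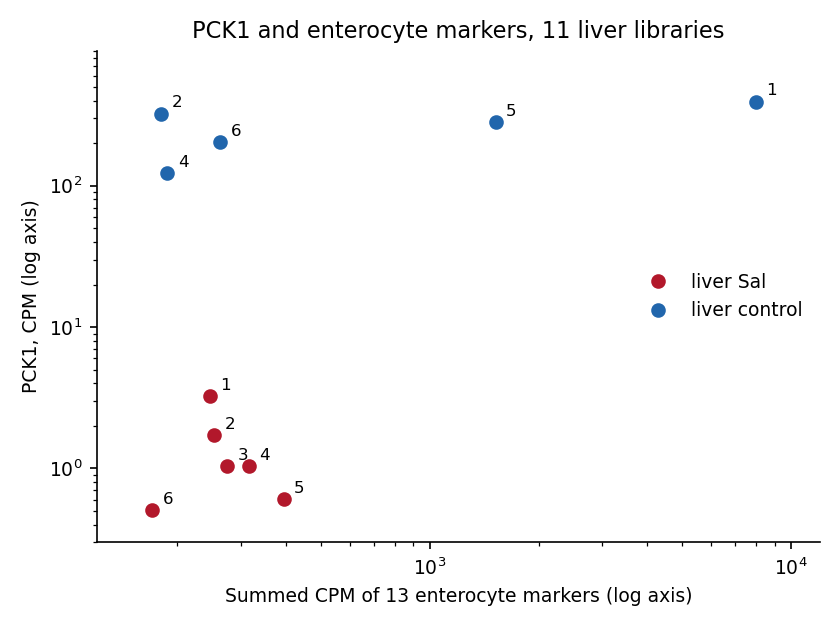
PCK1 in CPM (TMM scale, log axis) against the summed CPM of 13 enterocyte markers (share of the library total, log axis) for 6 Sal-exposed and 5 control livers, with library numbers. Controls 2, 4 and 6 have sums of all 13 markers within the Sal-exposed range of 170 to 394 CPM and PCK1 at 123 to 324 CPM. Most of the Sal-exposed sum is ANPEP and CDHR2. Without these, controls 4 and 6 (22.3 and 29.2 CPM) lie above the Sal-exposed range of 6.52 to 17.2 CPM.

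Kidney and fat markers were low, apart from the kidney markers in liver control 1. The 3 kidney tubule markers (AQP1, CUBN and SLC5A12) summed to 1.21 to 16.4 CPM in Sal-exposed livers and 0 to 148 CPM in control livers. The highest sum was that of control 1, which also had the highest enterocyte sum, and the next highest control had 9.23 CPM. The 4 fat markers summed to 2.22 to 8.91 CPM in Sal-exposed livers and 0.913 to 6.56 CPM in control livers. Cardiomyocyte markers went the other way, with 7 genes summing to 7.94 to 40.7 CPM in Sal-exposed livers and 0.110 to 8.24 CPM in control livers. The part of these marker differences in the results was not tested. Control livers reached down to fewer genes with a count than Sal-exposed livers, and what this does to markers at low levels was not tested. In bulk tissue, fewer cells of a type and less RNA per cell cannot be told apart.

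In heart PCK1 was near the limit of detection in both groups. It stood at 0 (lowest), 0.207 (median) and 1.07 CPM (highest) in Sal-exposed hearts, against 0.120 (lowest), 0.635 (median) and 2.18 CPM (highest) in control hearts. The groups overlapped, and Sal-exposed hearts 3 and 4 had no PCK1 count, which allows up to 0.1455 and 0.185 CPM on the same scale. Hearts also held some enterocyte and hepatocyte marker counts. Control heart 6, with the most PCK1, had the highest sums of both, 109.5 and 77.8 CPM of the library total. Sal-exposed hearts 3 and 4 had the lowest enterocyte sums, 16.7 and 19.3 CPM. Sal-exposed heart 1, highest in PCK1 of its group, had 47.5 CPM, which was not the highest there. Which cells the PCK1 counts in heart came from was not tested.

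PCK1 averaged 0.291 ± 0.398 CPM in Sal-exposed hearts and 0.774 ± 0.735 CPM in control hearts (SD, n = 6 each). The means differed by -0.483 CPM, which an exact two-sided permutation test over the 12 libraries did not separate from the spread (p = 0.180, the smallest possible being 0.0022). The filter on low counts had removed PCK1 from the heart fit. Fitted without that filter, edgeR's quasi-likelihood test gave a log2 fold change of -1.27 (SE 0.70, Benjamini-Hochberg adjusted p = 0.366).

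On 1 scale for all 23 libraries, PCK1 averaged 1.30 CPM in Sal-exposed livers, 257 CPM in control livers, 0.299 CPM in Sal-exposed hearts and 0.815 CPM in control hearts. Control livers stood alone at the top. The other groups overlapped with their neighbours, with ranges of 0.483 to 3.09 CPM in Sal-exposed livers, 0 to 1.09 CPM in Sal-exposed hearts and 0.125 to 2.33 CPM in control hearts. Liver over heart in control birds came to a log2 difference of 8.16 (SE 0.73), and the Sal effect in liver minus that in heart to -6.23 (SE 0.98). Both contain the liver controls on which PCK1 was chosen and are given with no test.

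**Figure D2:**
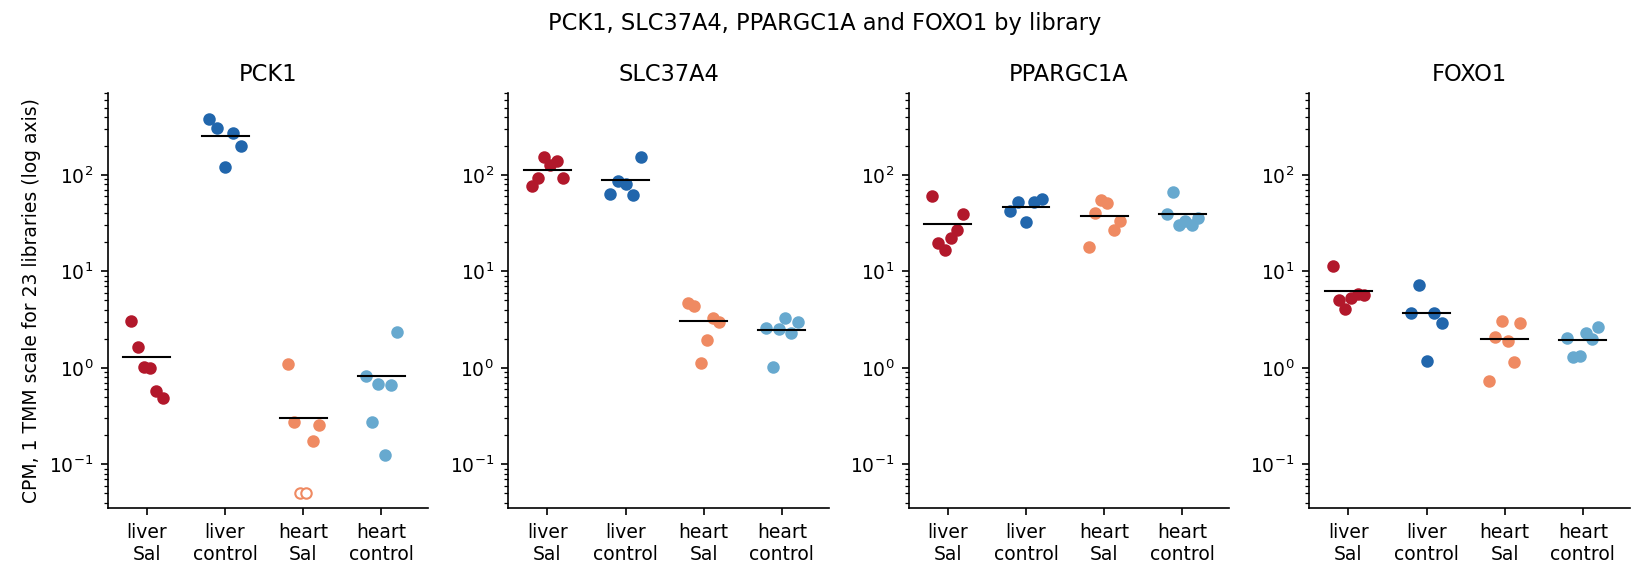
CPM on 1 TMM scale for 23 libraries (log axis) of PCK1, SLC37A4, PPARGC1A and FOXO1 in Sal-exposed and control liver and heart, each point a library and each line a group mean. Open points at the bottom are 2 hearts with a count of 0. PCK1 separates control livers at 120 to 380 CPM from all other libraries, while the Sal-exposed and control ranges of the other 3 genes overlap within each tissue.

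SLC37A4 carries glucose-6-phosphate to the enzyme that releases free glucose, the last step of the pathway. It stood at 81.5 (lowest), 115 (median) and 158 CPM (highest) in Sal-exposed livers, against 65.8, 91.5, 83.0, 64.3 and 154 CPM in control livers 1, 2, 4, 5 and 6. Controls 2, 4 and 6 lay within the Sal-exposed range and controls 1 and 5 below it. The log2 fold change was 0.38 (SE 0.25, edgeR adjusted p = 0.340).

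In heart SLC37A4 had 1.12 (lowest), 3.03 (median) and 4.57 CPM (highest) in Sal-exposed birds and 1.02 (lowest), 2.46 (median) and 3.13 CPM (highest) in controls. The ranges overlapped here too (log2 fold change 0.34, SE 0.33, edgeR adjusted p = 0.576). Tissue made the clear difference for this gene. In control birds it was higher in liver than in heart by 5.14 on the log2 scale (SE 0.36, edgeR adjusted p = 4.8e-12), where 47.3% of all 11158 genes tested were called.

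PPARGC1A stood at 17.2 (lowest), 25.9 (median) and 64.4 CPM (highest) in Sal-exposed livers, against 43.5, 54.2, 33.4, 53.6 and 56.9 CPM in control livers 1, 2, 4, 5 and 6. Of the 6 Sal-exposed libraries, the highest was Sal 1, which lay above every control. The log2 fold change was -0.57 (SE 0.30, edgeR adjusted p = 0.216). Without Sal 1 it was -0.88 with an adjusted p of 0.0392, below the threshold for p but short of the fold change. In heart the ranges overlapped, at 17.6 to 55 CPM in Sal-exposed hearts and 28.3 to 66.4 CPM in control hearts (log2 fold change -0.05, SE 0.29, edgeR adjusted p = 0.931).

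FOXO1 stood at 4.18 (lowest), 5.73 (median) and 12.1 CPM (highest) in Sal-exposed livers, against 3.80, 7.49, 1.20, 3.83 and 2.98 CPM in control livers 1, 2, 4, 5 and 6. Only control 2 reached into the Sal-exposed range. The log2 fold change was 0.75 (SE 0.40, edgeR adjusted p = 0.221). In heart it was 0.05 (SE 0.32, edgeR adjusted p = 0.949), with 0.713 to 3.06 CPM in Sal-exposed hearts and 1.26 to 2.50 CPM in control hearts. In control birds FOXO1 was higher in liver than in heart by 0.91 (SE 0.38, edgeR adjusted p = 0.0453), just short of the fold change for a call. Of all 11158 genes tested there, 6426 passed the adjusted p. Over 6 alternative settings the FOXO1 value ran from 0.62 to 0.90, with an adjusted p by edgeR or DESeq2 of 0.0478 to 0.303.

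None of these 3 genes was called for Sal in liver or heart, where a call required an adjusted p up to 0.05 together with a log2 fold change of 1 or more in either direction. Across all genes tested, 5.24% were called higher and 3.08% lower in liver, and 0.994% were called in either direction in heart. The Sal effect was not shown to differ between the tissues for SLC37A4 (0.03, edgeR adjusted p = 0.982), PPARGC1A (-0.53, edgeR adjusted p = 0.402) or FOXO1 (0.70, edgeR adjusted p = 0.369), each as the liver minus the heart log2 fold change.

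Around these genes, 77 of 133 listed genes of gluconeogenesis, glycolysis and their control had a row. In liver 74 were tested, and 5 (6.76%) were called higher and 6 (8.11%) lower, against the 5.24% and 3.08% of all genes. At the adjusted p alone the counts were 8 (10.8%) higher and 10 (13.5%) lower, against 7.36% and 6.89% of all genes. The median log2 fold change was 0.10 over the listed genes and 0.03 over all genes. Sal-exposed and control ranges did not overlap for 6 of the 74 (8.11%, against 10.1% of all genes). Without controls 1 and 5, 7 listed genes were called, of which 5 were among the 11 (GPT2, MPC2, PKM, CREM and SREBF1). Without controls 1 and 5, GOT1, HK2, PDHA1, RXRA and PRKAR1A no longer passed the adjusted p (0.0608 to 0.164). Without Sal 2 the count of called genes was 6.

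**Figure D3:**
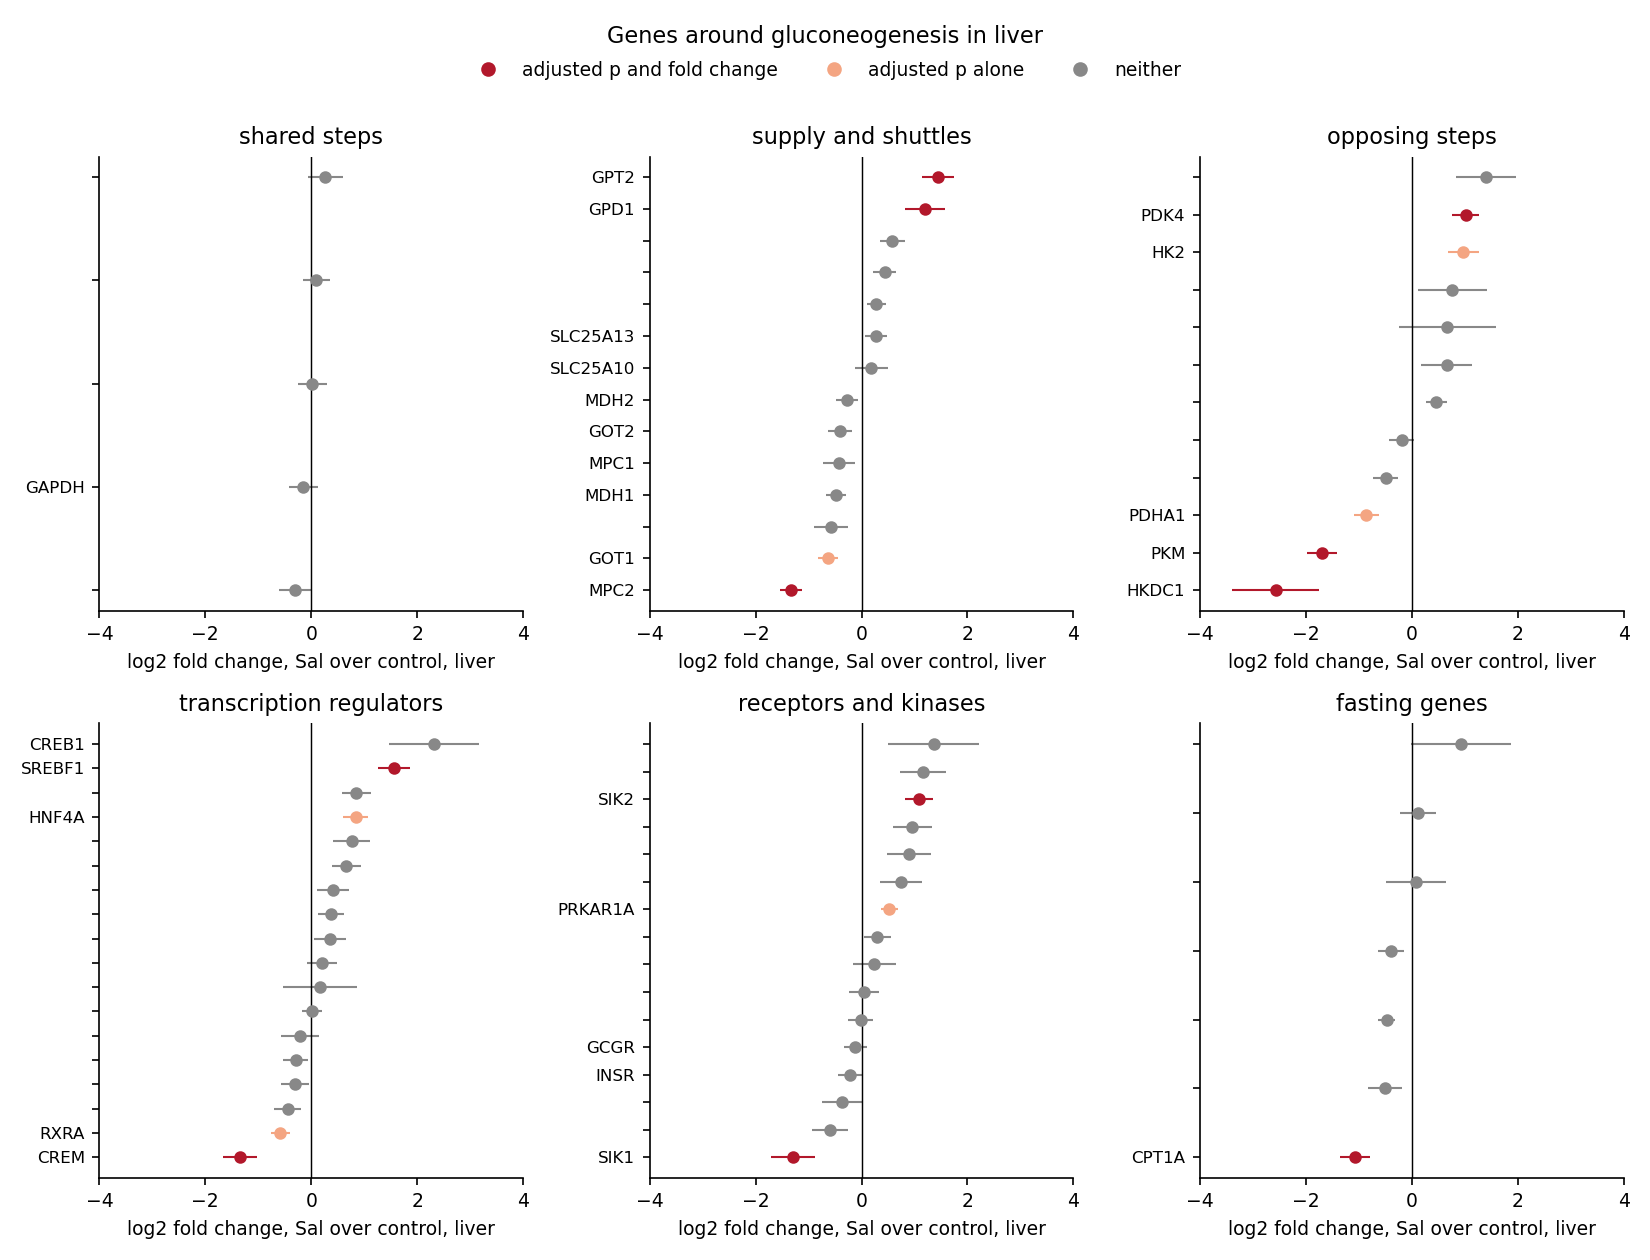
Log2 fold change of Sal-exposed over control in liver with its SE (6 and 5 libraries) for 72 of the listed genes in 6 groups, with names for those described in the text, coloured by whether they passed the adjusted p and the fold change, the adjusted p alone, or neither. The 5 genes of the shared steps drawn run from -0.31 to 0.27, and none is called. Of all genes 5.24% were called higher and 3.08% lower, so a group of 5 can hold none at those shares. The other groups each hold called genes.

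None of the 6 tested genes for the steps shared by gluconeogenesis and glycolysis passed the adjusted p in liver. Of all genes 7.36% passed higher and 6.89% lower, so a list of 6 can hold none at those shares. The 6 log2 fold changes ran from -0.31 to 0.27. GAPDH, the glyceraldehyde-3-phosphate dehydrogenase, averaged 1533 ± 435 CPM in Sal-exposed livers (SD, n = 6) and 1699 ± 680 CPM in control livers (SD, n = 5) (log2 fold change -0.15, SE 0.27, edgeR adjusted p = 0.754).

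Of 14 tested genes of substrate supply and of the shuttles between mitochondrion and cytosol, 10 did not pass the adjusted p in liver. GPT2 and GPD1 were called higher (14.3%, against 5.24% of all genes) and MPC2 lower (7.14%, against 3.08%), and GOT1 passed the adjusted p alone. GPT2, the mitochondrial alanine aminotransferase that makes pyruvate from alanine, stood at 72 (lowest), 161 (median) and 279.6 CPM (highest) in Sal-exposed livers, against 51.7, 67.6, 80.9, 66.8 and 36.5 CPM in control livers 1, 2, 4, 5 and 6. Apart from the lowest Sal-exposed library, Sal 1, every Sal-exposed value was above every control. Its log2 fold change was 1.44 (SE 0.29, edgeR adjusted p = 0.0072).

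MPC2, a subunit of the carrier that brings pyruvate into the mitochondrion, stood at 84.1 (lowest), 107 (median) and 119 CPM (highest) in Sal-exposed livers, against 192, 183, 283, 313 and 343 CPM in control livers 1, 2, 4, 5 and 6. The groups did not overlap. MPC2 fell by 1.33 on the log2 scale (SE 0.20, edgeR adjusted p = 0.0015). Its partner MPC1 did not pass (log2 fold change -0.42, SE 0.30, edgeR adjusted p = 0.362).

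GPD1, the cytosolic glycerol-3-phosphate dehydrogenase through which glycerol enters, averaged 115 ± 50.8 CPM in Sal-exposed livers and 50.1 ± 30.0 CPM in control livers (log2 fold change 1.20, SE 0.38, edgeR adjusted p = 0.0489). Leaving out each library in turn, it was called in 3 of 11 fits, those without Sal 1, control 2 or control 6, and its adjusted p reached 0.119 in the others. Without controls 1 and 5 its log2 fold change was 0.77 (adjusted p = 0.218). GOT1, the cytosolic aspartate aminotransferase of the malate-aspartate shuttle, averaged 101 ± 15.1 CPM in Sal-exposed livers and 156 ± 38.3 CPM in control livers (log2 fold change -0.63, SE 0.19, edgeR adjusted p = 0.0391). The groups did not overlap, but the adjusted p passed in 4 of 11 fits with a library left out, those without Sal 3 or control 1, 2 or 4 (highest 0.0891).

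The other shuttle enzymes did not pass. MDH1, the cytosolic malate dehydrogenase, differed by -0.48 on the log2 scale (SE 0.19, edgeR adjusted p = 0.0963), and the mitochondrial MDH2 had -0.27 (SE 0.20, edgeR adjusted p = 0.389). GOT2, the mitochondrial aspartate aminotransferase, had -0.40 (SE 0.23, edgeR adjusted p = 0.252). For the cytosolic and the mitochondrial form of each enzyme, the difference between the forms was not tested. SLC25A13, the aspartate-glutamate carrier, had 0.27 (SE 0.21, edgeR adjusted p = 0.397), and SLC25A10, the dicarboxylate carrier, had 0.19 (SE 0.31, edgeR adjusted p = 0.726).

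Of the opposing glycolytic steps, 12 genes were tested. PDK4 was called higher (8.33%, against 5.24% of all genes) and PKM and HKDC1 lower (16.7%, against 3.08%). HK2 (higher) and PDHA1 (lower) passed the adjusted p alone. PKM, the muscle-type pyruvate kinase that uses phosphoenolpyruvate, stood at 14.6 (lowest), 23.1 (median) and 28.2 CPM (highest) in Sal-exposed livers, against 113, 34.9, 83.4, 76.1 and 46.1 CPM in control livers 1, 2, 4, 5 and 6. All controls were above all Sal-exposed libraries. PKM fell by 1.69 on the log2 scale (SE 0.29, edgeR adjusted p = 0.0027), and the log2 fold change was -1.35 without controls 1 and 5 (adjusted p = 0.0229).

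PDK4, a kinase that switches off pyruvate dehydrogenase and spares pyruvate, stood at 69.2 (lowest), 126 (median) and 191 CPM (highest) in Sal-exposed livers, against 61.7, 58.3, 54, 58.7 and 73.5 CPM in control livers 1, 2, 4, 5 and 6. The groups overlapped at the lowest Sal-exposed library. The log2 fold change was 1.01 (SE 0.25, edgeR adjusted p = 0.0167), and it ranged from 0.85 to 1.14 with a library left out, with the adjusted p passing in 11 of 11 and the fold change short of 1 without Sal 1, 2 or 4 or control 2, 4 or 5. Without controls 1 and 5 it was 0.97 (adjusted p = 0.0791).

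PDHA1, a subunit of pyruvate dehydrogenase, averaged 50.5 ± 14.5 CPM in Sal-exposed livers and 91.6 ± 25.6 CPM in control livers (log2 fold change -0.86, SE 0.24, edgeR adjusted p = 0.0275). HK2, a hexokinase, averaged 11.5 ± 3.88 CPM in Sal-exposed livers and 5.82 ± 2.07 CPM in control livers (log2 fold change 0.97, SE 0.29, edgeR adjusted p = 0.0370). With a library left out, PDHA1 passed the adjusted p in 6 of 11 fits (without Sal 1, 3 or 6 or control 1, 2 or 6) and HK2 in 4 (without Sal 1 or 6 or control 4 or 6), and the highest values were 0.0680 and 0.0873. HKDC1, a further hexokinase, was at most 1.02 CPM in Sal-exposed livers, against 14.9, 0, 4.22, 4.70 and 1.07 CPM in control livers 1, 2, 4, 5 and 6. Its call (log2 fold change -2.57, SE 0.82, edgeR adjusted p = 0.0495) was lost without controls 1 and 5, where the value was -1.14 (adjusted p = 0.446), and with 1 library left out it held in 2 of 11 fits, without control 2 or 6.

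Of 18 tested regulators of PCK1 transcription, 4 passed the adjusted p in liver. They were 2 higher and 2 lower (11.1% each, against 7.36% and 6.89% of all genes). SREBF1, an insulin-responsive factor of lipid synthesis that opposes PCK1 transcription in mammals, was called higher and CREM, a cyclic AMP responsive factor, lower. Each call was 5.56% of those tested, against 5.24% higher and 3.08% lower of all genes. SREBF1 stood at 46.4 (lowest), 57.7 (median) and 77.6 CPM (highest) in Sal-exposed livers, against 19.8, 33.1, 26.8, 10.3 and 8.999 CPM in control livers 1, 2, 4, 5 and 6. The groups did not overlap, and the log2 fold change was 1.56 (SE 0.31, edgeR adjusted p = 0.0061).

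CREM stood at 12.6 (lowest), 13.6 (median) and 20.6 CPM (highest) in Sal-exposed livers, against 45.4, 13.4, 68, 21.8 and 40.4 CPM in control livers 1, 2, 4, 5 and 6. Control 2 lay within the Sal-exposed range and the other controls above it. CREM fell by 1.34 on the log2 scale (SE 0.32, edgeR adjusted p = 0.0150). CREB1, the cyclic AMP response element binding factor itself, did not pass (log2 fold change 2.32, SE 0.85, edgeR adjusted p = 0.0788), but was called without controls 1 and 5 (3.37, adjusted p = 0.0403).

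HNF4A, a nuclear receptor that hepatocytes need for PCK1 expression in mammals, passed the adjusted p alone, averaging 35.9 ± 6.08 CPM in Sal-exposed livers and 20.04 ± 7.91 CPM in control livers (log2 fold change 0.84, SE 0.24, edgeR adjusted p = 0.0316). RXRA, the retinoid X receptor, averaged 58.1 ± 9.54 CPM in Sal-exposed livers and 87.3 ± 15.2 CPM in control livers (log2 fold change -0.58, SE 0.18, edgeR adjusted p = 0.0377). With a library left out, HNF4A passed the adjusted p in 4 of 11 fits (without Sal 1 or control 1, 2 or 6) and RXRA in 5 (without Sal 3 or 4 or control 1, 2 or 4), and the highest values were 0.0723 and 0.0984. HNF4A was called without control 1 (log2 fold change 1.09) and without controls 1 and 5 (1.14, adjusted p = 0.0203).

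Of 16 tested receptors and kinases, SIK2 was called higher and SIK1 lower (6.25% each, against 5.24% and 3.08% of all genes). PRKAR1A passed the adjusted p alone. The salt-inducible kinases hold back gluconeogenic transcription in mammalian liver. SIK2 stood at 25.1 (lowest), 39.4 (median) and 43.7 CPM (highest) in Sal-exposed livers, against 23.3, 27.1, 12.1, 16.3 and 8.999 CPM in control livers 1, 2, 4, 5 and 6. The groups overlapped only at Sal 3 and control 2 (log2 fold change 1.08, SE 0.27, edgeR adjusted p = 0.0168). The fold change dropped short of 1 without control 4 or 6, at 0.92 at the lowest, and without controls 1 and 5 the adjusted p was 0.05003.

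SIK1 stood at 1.29 (lowest), 2.50 (median) and 5.40 CPM (highest) in Sal-exposed livers, against 12.5, 2.32, 6.48, 7.93 and 7.48 CPM in control livers 1, 2, 4, 5 and 6. Its log2 fold change was -1.29 (SE 0.41, edgeR adjusted p = 0.0467), with a call in 2 of 11 fits with a library left out (without Sal 4 or control 2) and none without controls 1 and 5 (-0.88, adjusted p = 0.251). PRKAR1A, a regulatory subunit of the cyclic AMP dependent kinase, averaged 49.9 ± 4.01 CPM in Sal-exposed livers and 34.6 ± 5.34 CPM in control livers (log2 fold change 0.53, SE 0.16, edgeR adjusted p = 0.0374), which held in 3 of 11 fits, without Sal 6 or control 2 or 6. The glucagon receptor GCGR (log2 fold change -0.12, SE 0.22, edgeR adjusted p = 0.763) and the insulin receptor INSR (-0.22, SE 0.23, edgeR adjusted p = 0.551) did not pass.

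Of 8 tested genes that rise in fasting in mammalian liver, CPT1A was called lower (12.5%, against 3.08% of all genes). CPT1A, which admits fatty acids to mitochondrial oxidation, stood at 144 (lowest), 161 (median) and 214 CPM (highest) in Sal-exposed livers, against 352, 370, 127, 329 and 588 CPM in control livers 1, 2, 4, 5 and 6. Control 4, which also had the least PCK1 of the controls, lay below every Sal-exposed library, and the other controls lay above them. CPT1A fell by 1.08 on the log2 scale (SE 0.28, edgeR adjusted p = 0.0231), but was not called without Sal 2 (adjusted p = 0.0506), without control 6 (log2 fold change -0.81) or without controls 1 and 5 (-1.13, adjusted p = 0.0645).

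**Figure D4:**
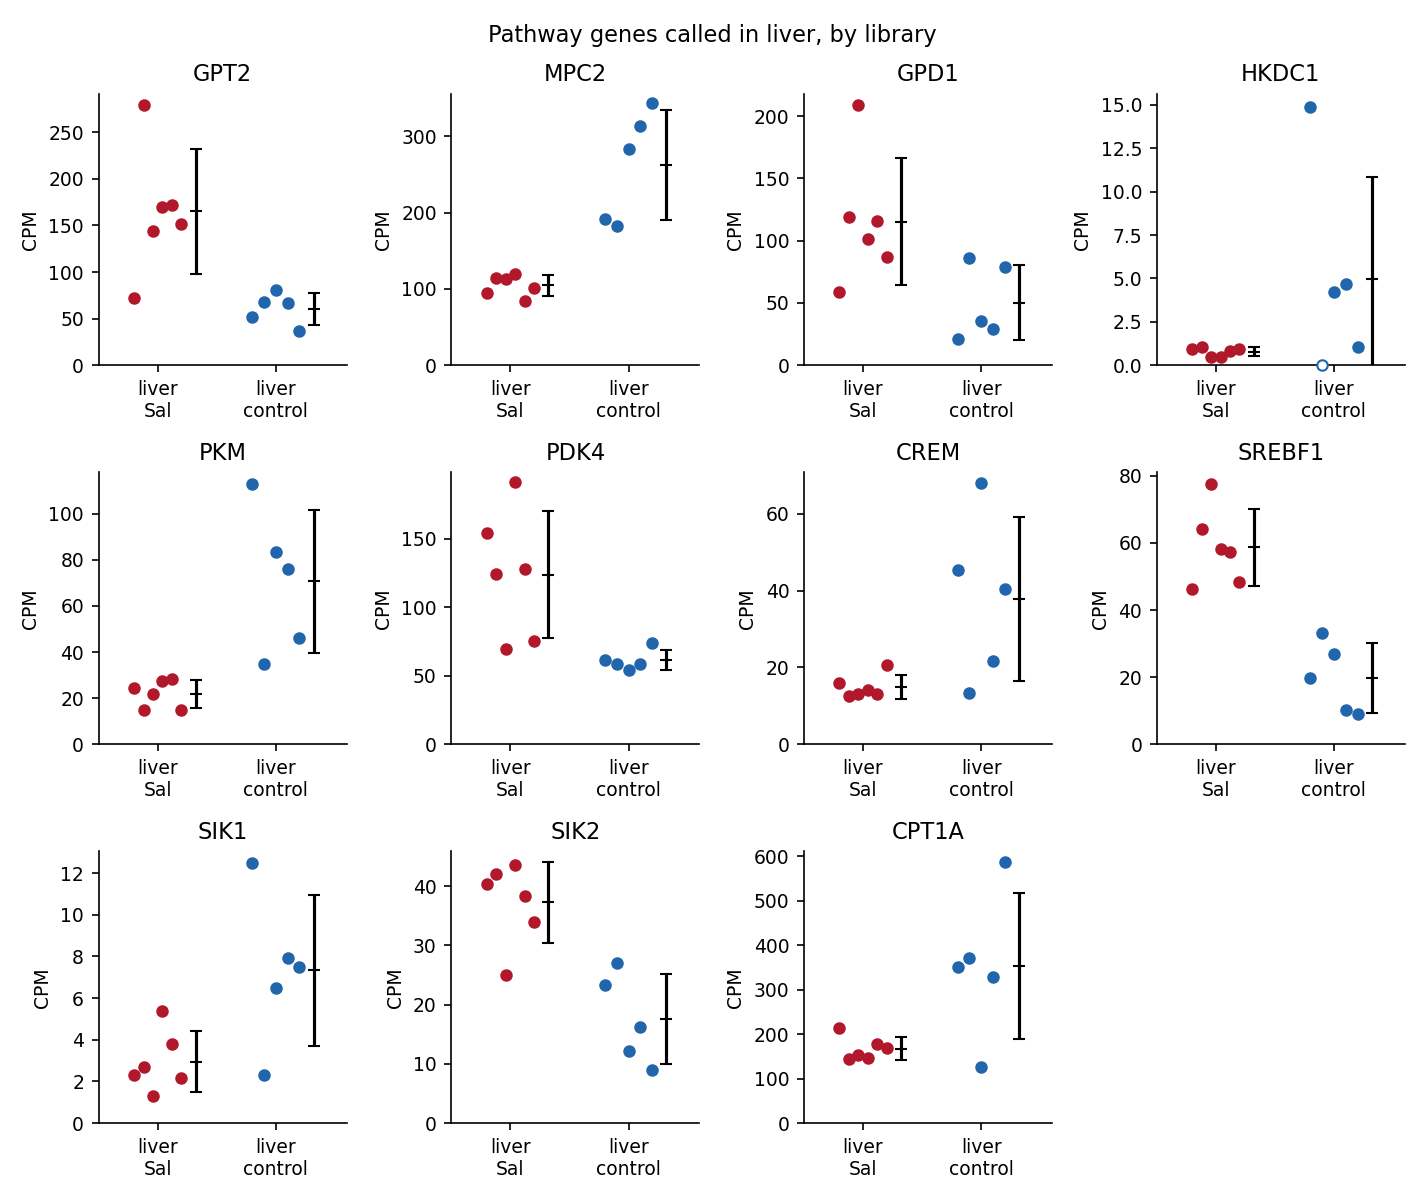
CPM by library for the 11 listed genes called in liver, in 6 Sal-exposed and 5 control livers, with the mean and SD beside the points (the HKDC1 control bar is cut at 0). MPC2, PKM and SREBF1 show no overlap between the groups, which held for 10.1% of all genes tested in liver. The control spread of HKDC1 rests on 1 library at 14.9 CPM.

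In heart none of 70 tested genes of the lists passed the adjusted p, with a lowest value of 0.0603 by edgeR, and 0.994% of all genes were called. At an unadjusted p below 0.05 in edgeR there were 8 of the 70, against 1771 of all 10265 genes tested in heart. DESeq2 called none of the listed genes. The Sal effect differed between liver and heart for 15 of 77 listed genes in edgeR's interaction test, with 6 (7.79%) higher and 9 (11.7%) lower in liver, against 9.46% and 7.01% of all genes. Among these were GPT2, MPC2, PKM, PDK4, CREM and SREBF1, which were named for their liver values, a part of this test.

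Over the 23 libraries, the genes whose log2 CPM followed PCK1 most closely were ELMO3 (Pearson r = 0.93), ATL1, NQO1, RAB11A and CPSF2 (r = 0.86 each), of 7524 genes compared. These libraries share the tissue and treatment groups, so the values are descriptions. ELMO3 averaged 14.2 ± 4.58 CPM in Sal-exposed livers, 45.4 ± 7.79 CPM in control livers, 6.20 ± 1.60 CPM in Sal-exposed hearts and 7.58 ± 1.38 CPM in control hearts. It shared with PCK1 the highest level in control livers, at a smaller range.

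When group means were taken out, the closest genes were MMP11 (r = 0.78), CYP3A37 (0.78), APOB (0.77), CDHR2 (0.77) and ENPEP (0.76). CDHR2 and ENPEP, both of the brush border, were highest in controls 1 and 5, with 667 and 149.5 CPM of CDHR2 and 836 and 229 CPM of ENPEP. These deviations include hearts in which PCK1 had from 0 to 75 counts. In the same hearts CYP3A37 had 1 to 328 counts, APOB 5 to 161, CDHR2 1 to 157 and ENPEP 0 to 139. The parts of heart and liver libraries in these r values were not tested.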

How the data were processed

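RNA-seq was available for 24 libraries of turkey heart and liver. The deposited table held estimated counts per gene, which the authors made with STAR and RSEM after fastp trimming, on Turkey_5.1 with Ensembl gene models. The sources used here do not give software versions, strand use in counting or the filter behind the 11587 genes. Of the 36 columns, 24 matched a library name of 1 sample, and the other 12 matched none and were not used. The authors' deposited comparison tables hold log2 fold changes from DESeq2 and their errors, a Wald score for each gene, and raw and adjusted p-values, and none of these was used. They gave positions and symbols for 4985 genes, and 3509 more took the symbol of the RefSeq gene that shared at least 50% of both spans.

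Each tissue was tested by quasi-likelihood in edgeR 4.0.16 under R 4.3.3, after filterByExpr, with TMM factors, robust dispersion, a prior count of 2 and Benjamini-Hochberg adjustment over all genes tested (10269 in liver, 10265 in heart). The F statistic gave the standard errors. The tissue and interaction tests used 1 fit over 23 libraries, with no term for the bird. CPM scale counts to a library of 1 M (mega) with TMM factors, and marker sums use library totals. Within a tissue the libraries come from separate birds as far as the study's methods state, and both tissues from the same birds. All tests are two-sided, and the fit was tested on simulated data. The genes, lists and markers were chosen with earlier results of these data known. Named from each list were all genes that passed the adjusted p, the 2 highest in a list with none, less genes not reported here, some related genes chosen after their values were seen (MPC1, MDH1, MDH2, GOT2, SLC25A10, SLC25A13, CREB1, GCGR and INSR), and the 5 genes most like PCK1 in levels and in deviations. Alternatives were RLE factors, library size alone, no mitochondrial genes, no filter, DESeq2 1.42.0 alone or with sva 3.50.0, a replicate block, liver control 3 included and each library left out. The planned ratio of PCK1 to PCK2 was not computed.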

Additional observations from a re-analysis of the deposited data

Results flagged for a closer look

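Of 20 groups of libraries examined (the 4 genes and the enterocyte marker sum, in 4 groups each), 5 held a value far from the rest. How often such a value arises by chance in groups of this size was not tested. PCK1 was at 1.07 CPM in heart Sal 1 and at 2.18 CPM in heart control 6, each the highest of its group. PPARGC1A was at 66.4 CPM in heart control 2, and FOXO1 at 12.1 CPM in liver Sal 1. The enterocyte marker sum was 7980 CPM in liver control 1.

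For 9 of the named genes the Sal effect was called as different between the tissues in edgeR's interaction test. Of all genes tested, 9.46% were called higher and 7.01% lower. These 9 genes were named because they passed the adjusted p in liver. The interaction test contains that liver contrast, so their values are a description. The liver minus the heart log2 fold change was 2.18 for GPT2, 1.67 for PDK4 and 1.68 for SREBF1. It was -1.23 for GOT1, -1.92 for MPC2, -1.98 for PKM, -1.16 for PDHA1, -1.80 for CREM and -1.54 for SIK1. Without 1 library, GOT1 was no longer called in 6 of 23 fits, PDHA1 in 2 (heart Sal 1 or liver control 4) and SIK1 in 8, while the other 6 genes remained called in all 23. With library size alone as the scale, GOT1, MPC2, PKM, PDHA1, CREM and SIK1 were not called.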

How the results depend on the processing

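The PCK1 log2 fold change in liver stayed between -7.97 and -7.27 under every setting run, and neither it nor its direction moved beyond the spread between libraries. PCK1 was chosen on this contrast, with its groups far apart, so this steadiness is a description. SLC37A4, PPARGC1A and FOXO1 were called for Sal in neither tissue under any setting. FOXO1 in liver came under the adjusted p, at 0.0059, with DESeq2 and surrogate variables, at a log2 fold change below 1. In liver, 854 genes were called, against 264 with liver control 3 included, 2435 with DESeq2 and surrogate variables, 1464 at the adjusted p alone and 506 to 1261 with 1 library left out. Of the listed genes 11 were called in liver, against 6, 17 and 18 under those first 3 settings, 7 without controls 1 and 5 (chosen after seeing the data) and 6 to 11 with 1 library left out. In heart 102 genes were called, against 185 with library size alone, 301 with DESeq2, 309 with surrogate variables and 52 to 143 with 1 library left out. For the difference between tissues 1838 genes were called and 1116 with liver control 3 included, and of the listed genes 15, against 9 with control 3 and 9 with library size alone. In the tissue comparison 1 of 3 genes was called, 2 at the adjusted p alone and 1 to 2 with 1 library left out (2 without heart control 6). The cause of these changes was not tested.

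Among the log2 fold changes given above, directions turned only for small values. Heart values of other named genes, not given above, were not all so steady. MPC2 in heart ran from -0.17 to 0.63 over 7 alternatives. In heart with library size alone, SLC37A4 was at -0.043 and FOXO1 at -0.38, while that scale moved the median of all genes by -0.41 in heart, 0.12 in liver and 0.53 in the difference. The tissue comparison moved by -0.21 on that scale and by -0.17 with RLE factors. PPARGC1A in heart was 0.012 with surrogate variables, and in the tissue comparison it was -0.032 with liver control 3 included, where GAPDH in liver was 0.043. With 1 library left out, the ranges that crossed 0 were -0.21 to 0.18 for PPARGC1A and -0.12 to 0.20 for FOXO1 in heart, -0.074 to 0.32 for SLC37A4 in the difference and -0.29 to 0.12 for GAPDH in liver.

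Whether the replicate numbers pair the libraries is not known. The correlations of same-numbered deviations ran from -0.51 to 0.21, and libraries of different numbers were not compared, so these values cannot decide it. With the number as a replicate block, 557 genes and 8 listed genes were called in liver, 30 and 0 in heart, and 1431 and 10 in the difference, and 5219 genes between the tissues. FOXO1 in heart was then at -0.050 and PCK1 in liver at -7.62. The settings planned for the ratio of PCK1 to PCK2 were not run. PCK1 in heart rests on 0 to 75 counts per library.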
